A study of Mus musculus with 9 samples.

Results

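The semaphorin, plexin, ephrin, Slit and netrin genes were followed in muscle stem cells, known as satellite cells, from wild type (WT) and Bmi1-deficient (KO) mice. Members were taken by name from the array design: every semaphorin (Sema), plexin (Plxn), Eph receptor (Epha, Ephb), ephrin (Efna, Efnb), Slit, Robo and netrin (Ntn) with its number or letter, together with Nrp1, Nrp2, Dcc and Unc5a to Unc5d. This gave 69 genes of the 36406 named features, measured by 91 of 55681 probes. They comprise 20 semaphorins, 11 plexins and neuropilins, 14 Eph receptors, 8 ephrins, 7 Slit and Robo genes, and 9 netrins, Dcc and Unc5 receptors. The choice used no measured difference between the groups.

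These families carry positional signals between cells and were first known from the steering of growing axons. Semaphorins signal through plexins, and most secreted class 3 semaphorins need a neuropilin as co-receptor; ephrins are membrane-bound and signal through Eph receptors, and are sorted into A and B types by their anchorage; Slits act on Robo receptors, and netrins on Dcc and Unc5 receptors. In skeletal muscle the same families are known from muscle innervation, vessel patterning and the movement of satellite cells, and Sema3a is secreted by satellite cells themselves.

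Skeletal muscle of FVB mice, 2 months old and labelled male, was dissociated and the satellite cells were collected by flow cytometry as cells with integrin a7 and CD34 on their surface but without CD31, CD45, CD11b or Sca1, which mark endothelial, blood, myeloid and mesenchymal cells. WT mice were compared with Bmi1-deficient mice; the labels name no further allele, Cre or treatment, and give neither the deleted part of Bmi1 nor the number of animals behind a sample. Bmi1 is a subunit of the Polycomb repressive complex 1, and the comparison asks what differs in gene expression when it is missing. RNA was amplified by whole transcriptome amplification and hybridised to 9 Agilent arrays of 1 colour, 3 WT and 6 KO.

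The 6 KO arrays formed 3 pairs that share a number in their descriptions, and arrays of a pair correlated at 0.9944 to 0.9956 over probes against 0.9622 to 0.9786 for the 33 other pairs of arrays, so each pair was averaged to 1 KO sample, giving 3 samples a group. Titles call the arrays biological replicates, but no label ties a sample to its own animals, so the spread behind each p-value may be technical. An array of the pair averaged as KO sample 1 carries wild type in its genotype field although its title, source and description say KO; it correlated at 0.9953 with its partner and at 0.9622 to 0.9701 with the WT arrays and was kept as KO. Values without that sample are given with the results. The Bmi1 probe differed by 0.10 (log2, KO minus WT; limma adjusted p = 0.849), which does not check the labels because the deleted part is unknown. Cdkn2a, a locus silenced by Bmi1 in many cells, rose by 3.28 (limma adjusted p = 0.0157). Between 71.9% and 75.8% of spots were well above background on each array, and no spot was saturated. The arrays lay on 2 slides: slide 1 held 2 WT and 3 KO arrays, slide 2 held 1 WT and 3 KO arrays. In sorted bulk cells, fewer cells of a type and less RNA per cell cannot be told apart.

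Levels are the log2 of the processed signal minus the array's 75th percentile, so a level of 0 is the brightness that 75% of spots do not exceed. Each gene is represented by its brightest probe, levels of different genes are not compared, and a difference is the mean of 3 KO samples minus the mean of 3 WT samples on this scale. A feature entered the test if it was well above background on at least 3 of the 9 arrays. As 3 arrays were WT and 6 KO, a feature seen in WT alone needed every WT array. One seen in KO alone did not need every KO array. The filter was therefore uneven and let in features seen in KO more easily, among the members and among all features.

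Of the members, 5 were measured by a probe that contains a run of a repeated pair or triplet of bases; these are shown because such probes were bright on nearly every array and because 1 of them lies away from its gene. A run of at least 18 bases occurred in the chosen probe of 5 of 69 members and in 177 of the 28375 features tested, or 0.624%. Of features with such a probe, 98.3% were well above background on all arrays, against 68.4% of the others. The Dcc probe lies at chr7:68417188-68417217 in the stretch shown, on a different chromosome from the gene's own 2 other probes on the array, and carries a run of 51 bases. Epha5 (20 bases), Ephb3 (32), Sema4c (22) and Sema6d (20) also carry runs. A stretch of 30 bases of each probe of 60 bases follows, 5′ to 3′, with the repeat in capitals; positions follow the array's design file on mm9, at chr5:84487352-84487381 (minus strand) for Epha5, chr16:21223187-21223216 (plus) for Ephb3, chr1:36606028-36606057 (minus) for Sema4c and chr2:124491639-124491668 (plus) for Sema6d, and the minus strand for Dcc. No annotation of mm9 was used here, so whether a probe lies in an exon or an untranslated part was not determined.
Dcc: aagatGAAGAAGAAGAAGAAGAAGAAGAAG
Epha5: gaaatTGTGTGTGTGTGTGTGTGTGcgtgc
Ephb3: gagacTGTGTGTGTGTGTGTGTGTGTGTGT
Sema4c: aaTGTGTGTGTGTGTGTGTGTGTGttgtaa
Sema6d: agaggggcgaGTGTGTGTGTGTGTGTGTGT

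With these repeat probes left out, an alternative added after the data were seen, 57 members entered the test and the median difference of the members was 0.40 in place of 0.21. Dcc then had -0.36 from a probe well above background on 3 of 9 arrays, in place of 0.11, and Sema6d 0.22 in place of -0.04. Epha5, Ephb3 and Sema4c had no other measured probe. For these 5 genes the values below therefore describe the probe. Their differences over the 3 and 3 samples lay within 0.11 of 0. On the same probes, Epha5 had -0.17 and Sema6d -0.19 within slide 1, and Dcc 0.18 without KO sample 2.

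Of the 69 members, 60 passed the filter: 57 were well above background on all 9 arrays, and Plxna4, Robo4 and Unc5c on some. The other 9 were Epha6, Epha8, Epha10, Robo2, Sema3e, Sema4f, Sema7a and Unc5d, well above background on no array, and Robo3, on 1 WT and 1 KO array. A member that passed only through its KO arrays had to be higher there, which holds for Robo4 (4 KO arrays) and Unc5c (5 KO arrays). Limma (empirical Bayes, p adjusted by Benjamini-Hochberg over 28375 features) called 0 of the 60 members at an adjusted p of 0.05, where 0.141% of all features were called, 37 higher (0.13%) and 3 lower (0.0106%) in KO. At an unadjusted p under 0.05, 18 members were higher and 1 lower in KO, 31.7% of 60, while 11% of all features reached it, 6.77% higher and 4.21% lower. The 3 KO samples all lay above the 3 WT samples in 18 members and below them in 3, which is 35%; the same separation was found in 16.7% of all features, 8.62% higher and 8.09% lower. The median difference over the 60 was 0.21, against -0.02 over all features, with 39 positive and 21 negative; 65% of the members were above 0, and 47.2% of all features. Among the 57 measured on all arrays, which the filter did not select for KO, 16 were higher and 1 lower at that unadjusted p and the median was 0.17. A set is not tested here, so these shares describe the families beside all features. The median moved by more than 1.5 times without KO sample 3 (0.36), within slide 1 (0.33), without repeat probes (0.40), after normexp background correction (0.14) and without the filter (0.11, over all 69), but stayed positive in each; without KO sample 1, which holds the array with the wild type entry, it was 0.24 and 15 members were higher at an unadjusted p under 0.05.

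**Figure D1:**
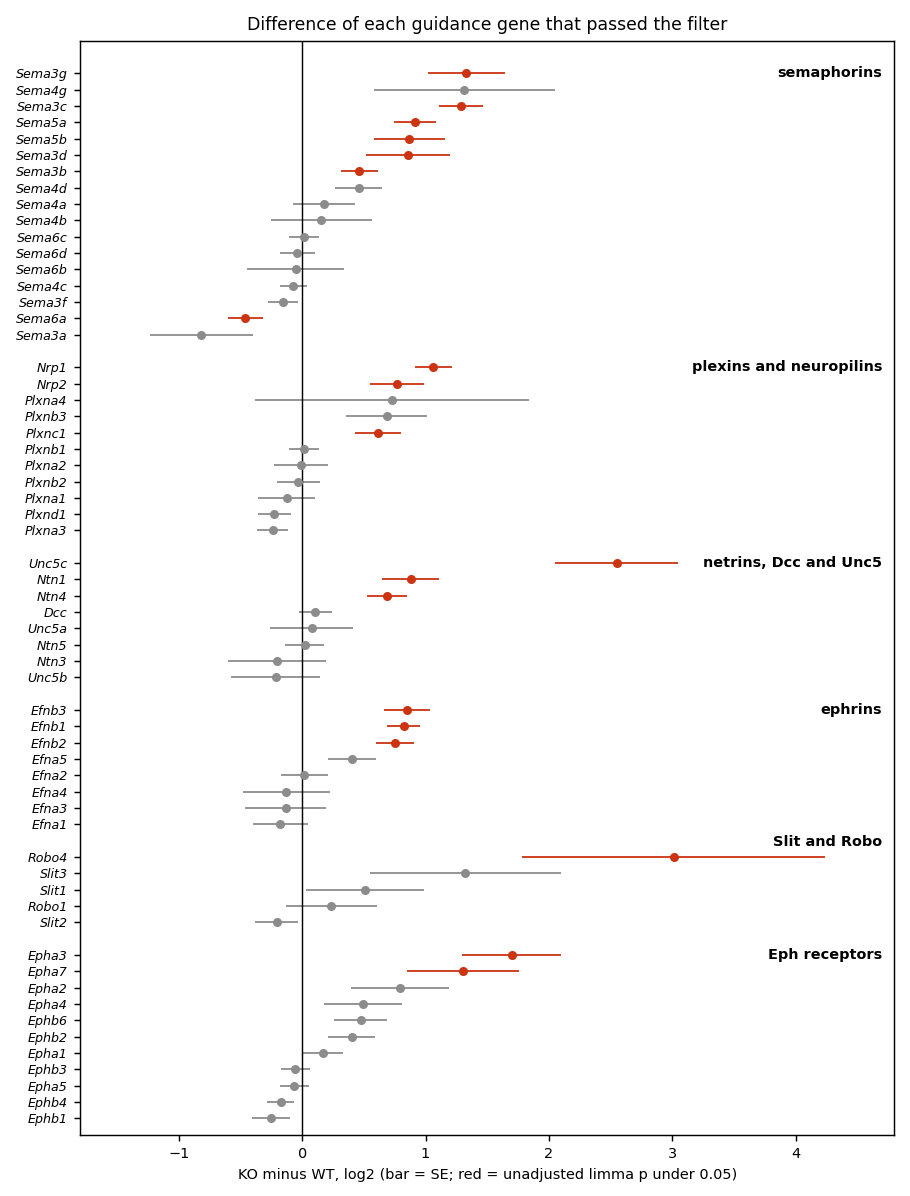
Difference between KO and WT (log2, horizontal axis) of each of the 60 members that passed the filter, grouped by family; points are means of 3 against 3 samples, bars are standard errors and red marks an unadjusted limma p under 0.05. 18 red points lie right of 0 and 1, Sema6a, lies left of it.

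The levels of the secreted class 3 semaphorins were mostly higher in KO. Of the 7, 6 were measured, 4 were higher at an unadjusted p under 0.05 with samples that did not overlap, and none was called. Of all features, 6.77% were higher at that p, and 8.62% were higher with samples that did not overlap. The same shares stand beside the counts of each family below. Sema3c, which signals through neuropilins and is known from heart and vessel patterning, had the smallest p-value of all members. Its level was -3.10, -2.84 and -2.75 in WT samples 1 to 3 and -1.33, -1.68 and -1.82 in KO samples 1 to 3. Every KO sample lay above every WT sample, by a difference of 1.29 ± 0.18 (SE, 3 against 3), with a limma adjusted p of 0.0788. The second Sema3c probe differed by 1.76, but it was well above background on only 1 of 3 WT arrays, so this size is uncertain. Sema3c became a call, that is an adjusted p under 0.05, in 4 alternatives: with the 9 arrays as separate samples (0.00396), in a mixed fit of the 9 arrays with their sample as random and their slide as fixed term (0.0227), after normexp background correction (0.0279) and in the authors' deposited table of processed values (0.0437). The difference was 1.20 within slide 1 and 1.34 within slide 2.

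Sema3g, a class 3 semaphorin known from endothelial cells, had levels of -1.51, -1.38 and -2.16 in WT and -0.90, -0.04 and -0.11 in KO, a difference of 1.33 ± 0.32 (SE; limma adjusted p = 0.201). The groups did not overlap on this probe, but the other Sema3g probe, measured on all arrays, differed by only 0.05, and the mean over both was 0.69. The brightest probe is annotated by an Ensembl transcript and the other by a RefSeq one. Sema3d, known from heart and vessel development, stood at -3.23, -3.33 and -3.20 in WT and at -1.89, -2.12 and -3.18 in KO. KO sample 3 sat just above the WT samples and the other 2 well above, for a difference of 0.86 ± 0.34 (SE; limma adjusted p = 0.437). Sema3b, a class 3 semaphorin that binds neuropilins, had 3.04, 3.02 and 2.64 in WT and 3.37, 3.31 and 3.40 in KO, a difference of 0.46 ± 0.15 (SE; adjusted p = 0.338). Sema3a, the class 3 semaphorin linked to satellite cells and the growth of motor axons, differed in the opposite direction. Its difference was -0.82 ± 0.42 (SE; limma adjusted p = 0.565), with WT levels of 1.10, 0.96 and 2.33 and KO levels of 0.98, 0.79 and 0.16, so KO sample 1 lay among the WT samples. WT sample 3 was the highest sample, and the second Sema3a probe differed by -0.86. With 1 sample left out at a time, the Sema3a difference ran from -1.07 to -0.38, the latter without WT sample 3. Sema3a is named here for its role in muscle and not by the rule for samples that separate. Sema3f differed by less than 0.16 in size, and Sema3e was not measured.

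Both class 5 semaphorins, which are membrane proteins with thrombospondin repeats, were higher at an unadjusted p under 0.05. Sema5a had levels of -2.65, -2.62 and -2.83 in WT and -2.08, -1.70 and -1.57 in KO. All KO samples lay above all WT samples, with a difference of 0.92 ± 0.17 (SE; limma adjusted p = 0.122), 0.88 within slide 1 and 0.92 within slide 2. Sema5b differed by 0.87 ± 0.29 (SE; adjusted p = 0.352), but KO sample 2 (-1.30) fell just below WT sample 3 (-1.26), and its second probe differed by 1.74. Class 4 semaphorins, membrane proteins that signal through plexin B, had none of 5 measured members at that p. Their differences ran from -0.07 to 1.31; the widest, Sema4g, rested on WT levels that ran from -5.11 to -2.09. Among class 6 semaphorins, membrane proteins that signal through plexin A, Sema6a was lower in KO, at 4.14, 4.21 and 4.14 in WT and 3.56, 3.60 and 3.94 in KO. Every KO sample was below every WT sample, a difference of -0.46 ± 0.14 (SE; limma adjusted p = 0.312). The other 3 class 6 members differed between -0.05 and 0.01. The bright probes of Sema4c and Sema6d carry the repeats shown above; Sema4c had 7.38, 7.22 and 7.32 in WT and 7.25, 7.17 and 7.28 in KO, and Sema6d 5.66, 5.61 and 5.33 against 5.51, 5.39 and 5.59, with overlapping groups for both.

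Neuropilins, the co-receptors of class 3 semaphorins that also bind VEGF, were both higher in KO at an unadjusted p under 0.05. Nrp1 stood at -1.62, -1.40 and -1.78 in WT and -0.63, -0.39 and -0.59 in KO. The KO samples did not overlap with WT and varied little among themselves (SD 0.13, n = 3). The difference was 1.06 ± 0.15 (SE; limma adjusted p = 0.0793), 1.06 within slide 1 and 0.97 within slide 2, and it lay between 0.91 and 1.16 in every alternative. Nrp1 was called in the same 4 alternatives as Sema3c, with adjusted p-values of 0.00342, 0.0111, 0.029 and 0.0398 in the order given above. Nrp2, the neuropilin preferred by several other class 3 semaphorins, had -0.41, -0.11 and -0.39 in WT and 0.89, 0.29 and 0.21 in KO. Its difference was 0.77 ± 0.22 (SE; adjusted p = 0.271) and that of its second probe 0.53.

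Plexins, the signalling receptors of semaphorins, had 1 of 9 members at an unadjusted p under 0.05. Plxnc1, the receptor of Sema7a, had -2.90, -2.53 and -2.81 in WT and -2.44, -1.97 and -1.98 in KO. Its KO samples lay above the WT samples, for a difference of 0.62 ± 0.19 (SE; limma adjusted p = 0.306), and its second probe gave 0.89; its ligand Sema7a was well above background on no array. Plxnb3 differed by 0.68 ± 0.33 and Plxna3 by -0.24 ± 0.12 (SE), each with samples that did not overlap but with an unadjusted p above 0.05. The Plxnb3 difference was 0.36 without WT sample 2, 0.40 within slide 1 and 1.29 within slide 2. The other 6 differed between -0.22 and 0.73. The upper end was Plxna4, which was well above background on only 6 of 9 arrays and had an SE of 1.11. Of the 2 members with the highest probe signal in the family, Plxnb2 had 1.57, 1.64 and 1.75 in WT and 1.82, 1.74 and 1.29 in KO, and Plxna2 had 1.42, 1.77 and 1.23 in WT against 1.17, 1.76 and 1.46 in KO. Both groups overlapped widely for these 2 genes, and their differences of -0.03 and -0.01 changed sign with scaling (0.00 and 0.02 after quantile normalization). The 95% interval of the Plxnb2 difference was -0.46 to 0.39.

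**Figure D2:**
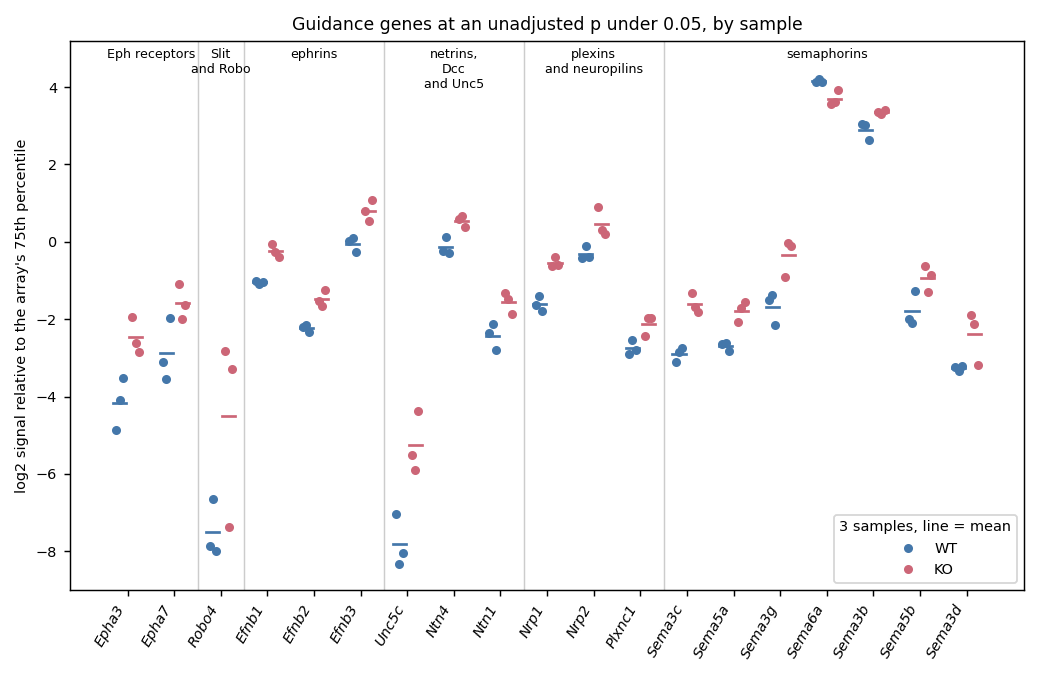
Level of each member at an unadjusted p under 0.05, as log2 signal relative to the array's 75th percentile (vertical axis), for 3 WT (blue) and 3 KO (red) samples, with lines at the group means; genes are grouped by family, and levels should be compared within a gene only. The KO mean lies above the WT mean in every member shown except Sema6a, and 1 Robo4 KO sample stays among the WT samples.

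All 3 ephrin-B genes, which encode transmembrane ligands that can signal into their own cell, were higher in KO at an unadjusted p under 0.05 with samples that did not overlap, while 0 of 5 ephrin-A genes, which encode lipid-anchored ligands, reached it. The contrast between the types was not tested. Efnb1 had levels of -1.01, -1.09 and -1.04 in WT and -0.04, -0.25 and -0.39 in KO. Its WT samples varied little (SD 0.04, n = 3) and all KO samples lay above them, for a difference of 0.82 ± 0.13 (SE; limma adjusted p = 0.101). It was called with the 9 arrays as separate samples (0.00434), in the mixed fit (0.0257) and after normexp correction (0.0477). Efnb2, the ligand that marks arterial endothelium, stood at -2.20, -2.14 and -2.34 in WT and -1.52, -1.67 and -1.24 in KO, a difference of 0.75 ± 0.15 (SE; adjusted p = 0.154) with 0.42 on its second probe. Efnb3, known as a midline repellent of corticospinal axons, had 0.02, 0.09 and -0.25 in WT and 0.79, 0.53 and 1.09 in KO, a difference of 0.85 ± 0.19 (SE; adjusted p = 0.17). Within slide 2 the 3 differences were 0.84, 0.57 and 0.68, and within slide 1 0.82, 0.88 and 0.95. Of the ephrin-A genes, Efna5 differed by 0.40 ± 0.19 (SE) with separate samples (0.23 without KO sample 2), and the other 4 lay between -0.18 and 0.02.

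Eph receptors, the tyrosine kinases that bind ephrins, had 2 of 11 measured members at an unadjusted p under 0.05, both of the A type. Epha3, which binds ephrin-A ligands and is known from motor axon targeting, had -4.88, -4.10 and -3.53 in WT and -1.95, -2.60 and -2.86 in KO. All KO samples lay above WT, with a difference of 1.70 ± 0.40 (SE; limma adjusted p = 0.2) that was 1.70 within slide 1, 1.67 within slide 2 and 1.05 after normexp correction. Epha7 differed by 1.30 ± 0.45 (SE; adjusted p = 0.375), but its KO sample 2 (-1.99) lay just below WT sample 3 (-1.96). A second Epha7 probe measured on all arrays differed by -0.04; it carries the accession of another transcript than the first. None of the 5 EphB receptors, the usual partners of ephrin-B, reached that p: their differences ran from -0.25 to 0.47, with Ephb6, a receptor without kinase activity, at 0.47 ± 0.22 and Ephb4, the venous partner of Efnb2, at -0.18 ± 0.11 (SE). Both of these had samples that did not overlap; the Ephb6 difference was 0.27 without WT sample 3 and 0.30 within slide 2. The probes of Ephb3 and Epha5 carry the repeats above; Ephb3 had 7.39, 7.31 and 7.40 in WT against 7.30, 7.22 and 7.42 in KO, and Epha5 had 7.09, 6.94 and 6.92 against 6.97, 6.84 and 6.96.

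The netrin group had 3 of 8 measured members at an unadjusted p under 0.05. These include Unc5c, which passed the filter only through KO arrays and so had to be higher there. Ntn1, a secreted guidance cue read by Dcc and Unc5 receptors, stood at -2.36, -2.14 and -2.80 in WT and -1.32, -1.48 and -1.86 in KO. All KO samples lay above WT for a difference of 0.88 ± 0.23 (SE; limma adjusted p = 0.242), and the second Ntn1 probe also gave 0.88; within slide 2 the difference was 0.58. Ntn4, a netrin of basement membranes, had -0.24, 0.12 and -0.30 in WT and 0.58, 0.68 and 0.38 in KO, a difference of 0.69 ± 0.16 (SE; adjusted p = 0.202). The Ntn4 difference was 0.84 within slide 1 and 0.41 within slide 2. Ntn3 and Ntn5 differed by -0.20 and 0.02. Unc5c, a receptor that turns netrin into a repellent, was well above background on none of 3 WT arrays and on 5 of 6 KO arrays. Its level was -7.04, -8.34 and -8.05 in WT and -5.51, -5.89 and -4.38 in KO. KO was at least 1.97-fold higher than WT, while the fitted difference of 2.55 ± 0.50 (SE; limma adjusted p = 0.139) rests on WT values below background and shrank to 0.42 after normexp correction. The KO mean behind the 1.97-fold bound includes an array not well above background, so the bound is approximate. A second Unc5c probe, well above background on 1 WT and 2 KO arrays, differed by 0.97. Dcc, the attractive netrin receptor, had 4.07, 4.18 and 4.03 in WT and 4.37, 4.05 and 4.18 in KO on its repeat probe, and its own 2 probes were well above background on 3 and on none of the 9 arrays.

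Slit and Robo genes had 1 of 5 measured members at an unadjusted p under 0.05. This was Robo4, which passed the filter only through KO arrays and so had to be higher there. Robo4, a Robo receptor of endothelial cells, was well above background on no WT array and on the 4 arrays of KO samples 1 and 3. Its level was -7.86, -6.65 and -8.00 in WT and -2.82, -7.36 and -3.29 in KO. KO sample 2 stayed among the WT samples, so the groups overlapped. The KO mean was 3.36-fold above the bound on WT, but it includes KO sample 2, well above background on neither of its arrays. This value is therefore not a strict lower bound. The fitted difference was 3.01 ± 1.23 (SE, limma adjusted p = 0.453), and without KO sample 2 it was 4.45 (adjusted p = 0.0906). Slit3, a secreted Robo ligand with a role in vessels, had -4.14, -2.24 and -2.10 in WT and -2.06, -2.28 and -0.16 in KO. Its groups overlapped through WT samples 2 and 3, with a difference of 1.32 ± 0.77 (SE; adjusted p = 0.62) that was 0.67 without WT sample 1, 0.65 without KO sample 3 and 0.72 within slide 2. Robo1, a main Slit receptor, had -1.48, -0.18 and -1.36 in WT and -0.66, -0.62 and -1.02 in KO; its difference of 0.24 ± 0.37 turned to -0.41 within slide 2. Slit1 and Slit2 differed by 0.51 and -0.21.

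Of the 19 members at an unadjusted p under 0.05, all kept the sign of their difference under every alternative that gave a value. These members were chosen by that p on the same samples, and the alternatives reuse the same arrays. Where the groups did not overlap, leaving out 1 sample could not turn the sign. The kept signs are therefore not a test of stability. Of the 19, 12 kept an unadjusted p under 0.05 when any 1 of the 6 samples was left out. These were Efnb1, Efnb2, Efnb3, Epha3, Nrp1, Nrp2, Ntn1, Ntn4, Sema3c, Sema3g, Sema5a and Unc5c. The same share over all features was not computed, so the count is not set apart from that of other genes. For Sema3g it rests on the brightest probe, and the other Sema3g probe differed by 0.05. Unc5c and Robo4 passed the filter only through KO arrays and so had to be higher there. Their kept sign, and the place of Unc5c among the 12, are therefore no sign of stability. The 2 members not above background in WT, Unc5c and Robo4, moved most under normexp correction with an offset of 50. Without KO sample 1, which holds the array with the wild type entry, the difference was 1.15 for Sema3c, 1.11 for Nrp1, 0.73 for Efnb1, 1.44 for Epha3 and 2.17 for Robo4. Over the alternatives Efnb1 ran from 0.73 to 0.90, Ntn4 from 0.41 to 0.84, Sema3b from 0.31 to 0.55, Nrp2 from 0.54 to 0.90 and Sema6a from -0.61 to -0.34.

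**Figure D3:**
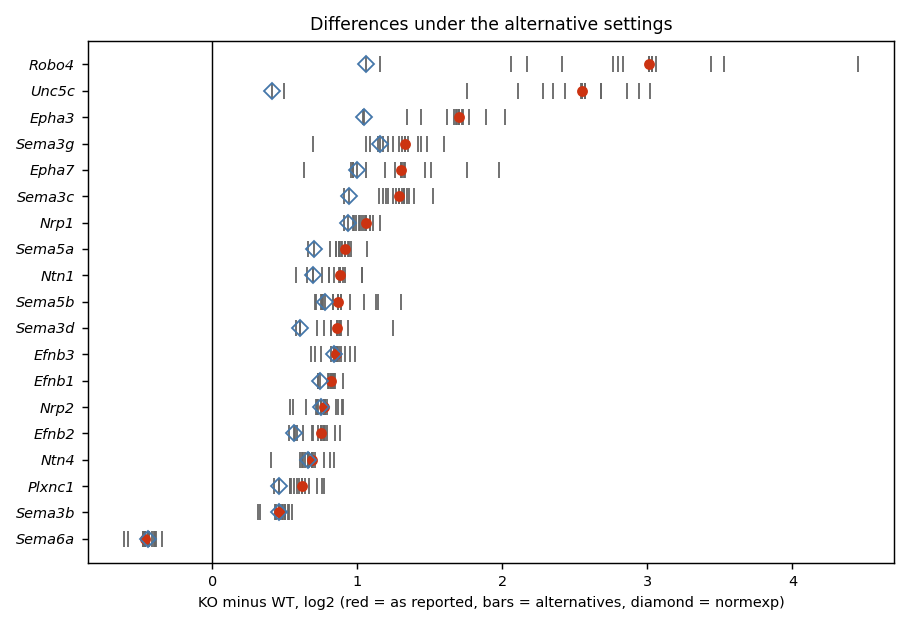
Difference between KO and WT (log2, horizontal axis) of the 19 members at an unadjusted p under 0.05: red points are the values reported, grey bars the alternative settings, and diamonds normexp background correction. No bar crosses 0, but the members were chosen by p on the same samples. Unc5c and Robo4 also passed the filter only through KO arrays and so had to be higher there. Unc5c falls from 2.55 to 0.42 and Robo4 from 3.01 to 1.06 under normexp, while Nrp1 and Efnb1 change little.

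The promoters of the 3 members with the smallest p-values, Sema3c, Nrp1 and Efnb1, are shown with each CG marked, since Polycomb complexes, to which Bmi1 belongs, are known from promoters rich in CG. Windows of 300 bases around the start of the gene, most of them upstream, come from RefSeq on GRCm38.p6, 5′ to 3′ along the gene, with CG in capitals: chr5:17574566-17574865 for Sema3c, chr8:128358823-128359122 for Nrp1 and chrX:99135811-99136110 for Efnb1, all on the plus strand.
Sema3c: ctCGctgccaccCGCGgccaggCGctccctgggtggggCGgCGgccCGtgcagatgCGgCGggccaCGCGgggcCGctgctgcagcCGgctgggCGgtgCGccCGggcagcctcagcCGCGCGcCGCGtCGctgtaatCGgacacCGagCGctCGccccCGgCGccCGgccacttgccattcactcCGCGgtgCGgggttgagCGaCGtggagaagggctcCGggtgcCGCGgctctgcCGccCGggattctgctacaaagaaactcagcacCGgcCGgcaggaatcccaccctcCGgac
Nrp1: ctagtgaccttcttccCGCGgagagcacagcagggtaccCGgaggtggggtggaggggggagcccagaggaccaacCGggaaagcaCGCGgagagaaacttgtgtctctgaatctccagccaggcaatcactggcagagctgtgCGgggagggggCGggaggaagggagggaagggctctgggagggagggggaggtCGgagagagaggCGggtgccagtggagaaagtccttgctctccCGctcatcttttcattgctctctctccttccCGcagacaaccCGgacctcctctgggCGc
Efnb1: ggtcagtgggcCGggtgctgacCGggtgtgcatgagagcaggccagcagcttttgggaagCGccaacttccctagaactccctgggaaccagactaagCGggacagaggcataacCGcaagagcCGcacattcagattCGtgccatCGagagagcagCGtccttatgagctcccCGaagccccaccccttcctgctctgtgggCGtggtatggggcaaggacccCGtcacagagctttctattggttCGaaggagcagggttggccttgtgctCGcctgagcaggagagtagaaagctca

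These windows hold 42 CG for Sema3c, 14 for Nrp1 and 14 for Efnb1. A window was found for 59 of 69 members, the first of each gene, and 49 of them (83.1%) hold at least 10 CG, against 43.9% of 27025 genes; the letters CG read the same on both strands. Of the members at an unadjusted p under 0.05, 12 of 15 with a window (80%) hold at least 10, and 31 of 36 (86.1%) of the other members that passed the filter. Binding or chromatin marks at these windows were not measured in these data.

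Genes that act with these receptors inside the cell or beside them formed a list of 60, of which 59 were measured. 1 was called: Srgap3, a GTPase-activating protein that acts downstream of Robo, rose by 1.65 ± 0.15 (SE; limma adjusted p = 0.0442), from -3.65, -3.77 and -3.999 in WT to -2.26, -2.25 and -1.98 in KO. This call was lost without any 1 sample (adjusted p from 0.0944 to 0.145), with slide as a block (0.107), within slide 1 (0.142), without the filter (0.0644) and as a mean over its probes (0.11). At an unadjusted p under 0.05, 12 of the 59 were higher and 1 lower, with a median difference of 0.08 and 39 positive. Of all features, 6.77% were higher and 4.21% lower at that p, and 47.2% were above 0. Next by p-value were Mical2, an actin-oxidising enzyme downstream of plexins, at 1.02 (adjusted p = 0.0986), and Nrcam, an adhesion molecule that associates with neuropilin, at 1.64 (0.203). On the lower side, Rgma, a ligand of neogenin, differed by -0.35 (0.348), Mical3, of the same enzyme family as Mical2, by -0.53 (0.513), and Evl, an actin regulator of the Ena/VASP family, by -0.23 (0.619).

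Several guidance genes are known from vessels, nerves and connective tissue, so markers of other cell types were counted too. Counting genes at an unadjusted p under 0.05, 10 of 13 measured glial markers, 8 of 20 mesenchymal, 5 of 17 endothelial and 5 of 14 mural markers were higher in KO, and none was lower. Of all features, 6.77% were higher and 4.21% lower at that p. The endothelial count includes Robo4, which is also a guidance member, and the mesenchymal count includes Pdgfra. Both passed the filter only through KO arrays, so they had to be higher there. The summed linear signal of the list, relative to the array's 75th percentile, ran from 53.8 to 63.6 in WT and from 69.3 to 71.9 in KO for glial markers, and from 163 to 178 against 218 to 240 for mesenchymal ones. For endothelial markers it was 4.6 to 5.86 in WT and 6.25 to 9.84 in KO, and for mural markers 180 to 186 against 182 to 197, with overlap. A linear sum follows its brightest probes, and the mural sum was set mostly by Mcam, which differed by -0.10 (limma adjusted p = 0.834). The brightest probe was that of Pmp22 in the glial list, Col3a1 in the mesenchymal and Tek in the endothelial. These differed by 0.11, 0.03 and 0.17, so a higher sum came from other bright probes and does not describe a whole list. Of the 14 mural markers, 13 differed upward and 1 downward. In 6 of them all KO samples lay above all WT samples, which held for 8.62% of all features. Of markers not well above background on every array, Pdgfra, the fibro-adipogenic receptor, was so on 0 of 3 WT and 6 of 6 KO arrays. Pecam1 was so on 2 of 3 and 6 of 6, and Sox17 on no array. The 6 KO arrays are 3 samples. Other markers of the same lists differed little: Dpt by -0.01, Thy1 by -0.18, Pi16 by 0.02 and Eng by 0.01. Above 0 were 18 of 20 mesenchymal markers, with 2 below, and all 17 endothelial markers. 1 marker was called: Pdgfrb, the mural cell receptor, rose by 1.35 (limma adjusted p = 0.0377), a call lost without any 1 sample (0.0906 to 0.145), with slide as a block (0.102), within slide 1 (0.127) and without the filter (0.0571). Myeloid markers had 1 higher and 1 lower of 12 (124 to 144 against 121 to 134), with Lyz2 on no array. The myeloid sum was set mostly by the bright Itgam probe (7.11 in WT sample 1), so it says little about the other markers. The lower gene was Ctss, at -2.65 (limma adjusted p = 0.0986). It was well above background on 3 of 3 WT and 0 of 6 KO arrays, so the filter set its direction. Muscle fibre markers had 1 higher and 1 lower of 14 (40.1 to 54.8 against 44.9 to 51.2). Satellite cell markers had 3 higher of 15 (142 to 167 against 159 to 162), and all 15 were well above background on all WT arrays. Robo4 is itself an endothelial marker, and in KO sample 2, where it stayed at the WT level, the median endothelial difference from WT was 0.05 against 1.70 and 0.69 in KO samples 1 and 3. That median includes Robo4, so the 2 are not independent, and a link between them was not tested. The part of these other cell types in the differences of the guidance genes was not tested.

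**Figure D4:**
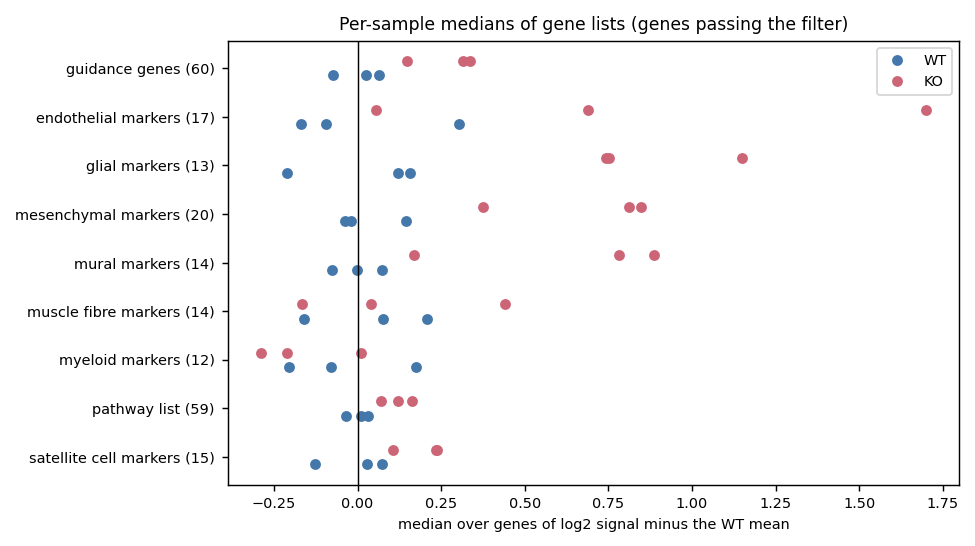
Median over the measured genes of each list of the level minus the WT mean (log2, horizontal axis), 1 point per sample, WT in blue and KO in red, with the number of genes in brackets. The 3 KO medians of the guidance genes (0.15 to 0.34) lie above the WT medians (-0.07 to 0.06), as they do in the glial, mesenchymal, mural, pathway and satellite cell lists; the endothelial, muscle fibre and myeloid points overlap.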

How the data were processed

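Per the file headers, Agilent Feature Extraction 10.7.3.1 made the deposited scanner files, whose processed intensity of each spot is background-subtracted and not normalized between arrays; surrogates replace dim values. The values in a table also deposited by the authors run like log2 values, and all columns share a median of 7.806. They correlate with the normexp-corrected log2 scanner intensities (r of 0.999575 to 0.999984 per array). A match to quantile-normalized values was not computed. The steps behind it were not given in the sources used here; centring per gene was not seen, and it served as an alternative.

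Here outlier spots were left out, repeat spots averaged and 35 empty probe values filled with the probe's mean on other arrays; no member's chosen probe was filled. From log2 intensity each array's 75th percentile was subtracted. Per gene name the brightest probe was kept. Limma 3.58.1 in R 4.3.3 (data.table, version 1.17.8, statmod 1.5.0) compared 3 KO with 3 WT samples over 28375 features; the code was tested on simulated data. Python 3.11.15, pandas 2.3.3 and matplotlib 3.10.9 read sequences and drew plots. At least N-fold compares the brighter group's mean with the dimmer group's mean of each array's lowest signal well above background or the probe's own signal, if higher.

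Values in every sample are given for members called, those at an unadjusted p under 0.05 with samples apart, those above background in 1 group only, and the 2 brightest per family; Sema3a was added after its values were seen, as were the single values of Sema4g, Sema5b and Epha7. The members and lists were chosen with earlier results of these data known.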

Additional observations from a re-analysis of the deposited data

How the results depend on the processing

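The count of members called moved from 0 to 12 with the 9 arrays as separate samples (which counts paired KO arrays apart), to 3 in the mixed fit (sample random, slide fixed), to 3 with normexp correction and to 2 in the authors' deposited table; 0 were called in every other alternative that gave a test. Before any alternative, the median difference was 0.177 for semaphorins, 0.0162 for plexins and neuropilins and 0.401 for Eph receptors. It was 0.208 for ephrins, 0.507 for Slit and Robo and 0.0922 for the netrin group. KO and WT share replicate numbers, but samples of one number did not deviate together (r of -0.0428, 0.0256 and 0.00793). With the replicate block 0 members and 0 of all features were called (40 without it), 20 members were higher at an unadjusted p under 0.05, and the members' median stayed at 0.207; Srgap3 (adjusted p = 0.191) and Pdgfrb (0.187) were not called. Medians that moved beyond the spread between samples were, for all members, 0.326 within slide 1, 0.108 with no filter and 0.401 without repeat probes; for Eph receptors 0.256 within slide 2, 0.319 with normexp, 0.293 in the deposited table, 0.0546 with no filter and 0.475 without repeat probes; for the netrin group 0.286 within slide 2; and for semaphorins 0.34 without repeat probes. Leaving out 1 sample gave 0.151 to 0.365 for all members, 0.00103 (without WT sample 3) to 0.441 for semaphorins, 0.0101 to 0.142 for plexins and neuropilins, 0.237 to 0.488 for Eph receptors, 0.138 to 0.375 for ephrins, 0.176 to 0.967 for Slit and Robo, 0.0914 to 0.237 for the netrin group, and 0 members called. Differences were followed under each alternative for 37 members, and the sign turned in 8: Plxna2 (0.104 within slide 1, 0.0156 quantile, 0.0138 with the percentile over probes above background on all arrays; -0.158 to 0.142 leaving out 1 sample), Plxnb2 (0.00202 quantile, 0.0132 deposited table; -0.135 to 0.129), Sema6d (0.0134 quantile, 0.0288 deposited table, 0.0915 mean over probes, 0.222 without repeat probes, 0.0691 within slide 2; -0.141 to 0.0237), Epha5 (0.00202 deposited table, 0.0586 within slide 2), Ephb3 (0.0335 and 0.00692), Sema4c (0.00317 within slide 2), Dcc (-0.129 mean over probes, -0.365 without repeat probes), and Robo1 (-0.411 within slide 2; -0.00127 to 0.652 leaving out 1 sample). Causes were not tested. Within slide 2, 1 WT array gave values without a test. The number of samples limits precision, and members not well above background have only a bound.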
